A study of Mus musculus with 16 samples.

Results

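The early response of a healing skin incision to mechanical load was measured in wound tissue of wild-type C57BL/6 mice, all labelled female, on Affymetrix GeneChip arrays. The comparison uses 8 of the 16 arrays of the series: 4 stressed wounds taken on day 6 after injury, following 48 hours of loading, and 4 unstressed wounds taken on day 6. The design text gives 4 mice for each group and time point, and the wounds were dorsal incisions made in a mouse model of hypertrophic scarring. All groups carried the incision, so the unstressed wounds are wounded skin and not intact skin. The other 8 arrays are stressed wounds of day 14, after 10 days of loading, and unstressed wounds of day 14, and they enter only where stated. All 34945 probe sets with a single gene symbol in the platform's annotation, which stand for 18193 genes, were compared within day 6.

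Values are log2 signals that the authors centred per probe set, so 0 stands for no particular amount of transcript and comparisons hold within a probe set, between arrays. No source used here gives the base of the logarithm. It was read as 2, and with natural logs every difference would be larger than printed. Because of the centring, the labelled tissue could not be checked through the level of its markers. In RNA from whole tissue, fewer cells of a type and less RNA per cell cannot be told apart.

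As background, a wound of this age is filling with granulation tissue, in which fibroblasts lay down fibronectin, tenascin and the first collagens, and the epidermis has closed or is closing over it. Cells sense tension through integrins, focal adhesions and stretch-gated channels. Contracting fibroblasts, the myofibroblasts, express smooth muscle actin. Fibroblasts of adult skin also keep a pattern of Hox gene expression that records where on the body they came from, and Hox genes of high paralogue number mark the rear and the distal parts of the body.

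The spread among arrays was uneven. The median absolute deviation of an array from the mean of the other 3 arrays of its group was 0.25 for stressed replicate 2, 0.13 to 0.16 for the other stressed arrays and 0.14 to 0.20 for the unstressed arrays. The X-inactivation transcript Xist and 3 Y-linked genes (Eif2s3y, Kdm5d and Uty) stayed between -0.53 and 0.97 among the day 6 arrays, while among the day 14 arrays Xist ran from 0.17 to 6.30, Eif2s3y from -5.70 to -0.74, Kdm5d from -3.15 to -0.39 and Uty from -3.17 to -0.38. The 3 Y-linked genes (Eif2s3y at -0.004 to 0.89, Kdm5d at -0.34 to 0.66 and Uty at -0.07 to 0.97) were higher on every day 6 array than on any day 14 array, which goes against 1 sex label for all 16 arrays. The centred values give no level, so whether the day 6 wounds came from female mice, as labelled, could not be settled. None of these 4 genes passed the test for loading at day 6 (adjusted p of at least 0.65, limma).

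After 48 hours of loading, few transcripts could be called with 4 wounds per group, which does not show that the others were unchanged. In limma, 16 of 34945 probe sets passed an adjusted p of 0.05, which is 0.0458% of those tested, and they stand for 15 genes. They comprised 12 probe sets of 11 genes that rose in stressed wounds (0.0343%) and 4 of 4 genes that fell (0.0114%). The 4 that fell were all homeobox genes, Hoxc10, Hoxa9, Hoxa7 and Isl1. Where on the back each incision lay was not compared between the groups, so the part of body position in these values was not tested. The 11 that rose included genes for secreted matrix proteins (Fn1 and Mfap5), enzymes and inhibitors that act outside the cell (Pcsk5, Sulf1, Tfpi2 and Masp1), a secreted hedgehog pathway protein (Scube2) and intracellular regulators (Camk4, Csrp2 and Glis3). On all 16 probe sets the 4 stressed arrays lay entirely on one side of the 4 unstressed arrays, a separation seen in 6.16% of all probe sets (3.11% higher and 3.05% lower). The 16 were selected on these same arrays, so their separation is no further support for the calls. The count of calls depends on single arrays: leaving out unstressed replicate 1, 2, 3 or 4 gave 6, 113, 7 or 2 probe sets, and leaving out stressed replicate 1, 2, 3 or 4 gave 2, 28, 4 or 3. Hoxc10 kept its call in all 17 alternatives and Hoxa9 in 16 of 17, whereas each of the remaining genes kept it in 6 to 10.

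Hoxc10, a homeobox gene of the HoxC cluster, showed the largest fall. Its log2 signals (probe set 1439798_at) were 2.56, 3.37, 2.71 and 2.91 in unstressed wounds and -0.72, -0.83, -0.76 and -0.74 in stressed wounds. The 4 stressed wounds were nearly equal and lay far below every unstressed wound. Hoxc10 fell by 3.65 (SE 0.163, adjusted p = 3.2e-05, limma), which is 12.5-fold.

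Hoxa9, of the HoxA cluster, read 2.95, 2.45, 2.35 and 2.49 in unstressed and -0.07, -0.98, -0.49 and -0.24 in stressed wounds (probe set 1455626_at). It fell by 3.0 (SE 0.204, adjusted p = 0.00090, limma), or 8.02-fold, again with a wide gap between the groups. Its second probe set was lower by a smaller amount, with a difference of -0.52 that did not pass (adjusted p = 0.21). Hoxa7, its close neighbour in the HoxA cluster, read 1.35, 1.12, 0.82 and 0.90 in unstressed and -0.04, -0.39, -0.15 and -0.11 in stressed wounds and fell by 1.22 (SE 0.140, adjusted p = 0.042). Isl1, a LIM homeobox gene that acts in motor neurons, the heart and the hindlimb field of the embryo, read 1.12, 1.86, 1.35 and 1.51 in unstressed and 0.12, -0.45, -0.03 and 0.03 in stressed wounds. It fell by 1.54 (SE 0.178, adjusted p = 0.042), and its other probe set gave -1.18 (adjusted p = 0.081).

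The promoters of the 3 called homeobox genes with an entry in the RefSeq promoter table are printed because these genes fell together. Each sequence holds the 250 bases before the gene's start on the gene's own strand, from RefSeq on GRCm38.p6, with a match to a searched motif in capitals. They lie at chr6:52227371-52227620 (Hoxa9, minus strand), chr6:52218574-52218823 (Hoxa7, minus strand) and chr13:116309689-116309938 (Isl1, minus strand).
Hoxa9: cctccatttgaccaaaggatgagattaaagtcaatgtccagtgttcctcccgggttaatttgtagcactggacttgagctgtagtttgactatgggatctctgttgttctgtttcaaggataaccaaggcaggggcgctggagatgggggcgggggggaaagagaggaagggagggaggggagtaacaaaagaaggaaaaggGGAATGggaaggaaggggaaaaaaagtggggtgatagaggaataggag
Hoxa7: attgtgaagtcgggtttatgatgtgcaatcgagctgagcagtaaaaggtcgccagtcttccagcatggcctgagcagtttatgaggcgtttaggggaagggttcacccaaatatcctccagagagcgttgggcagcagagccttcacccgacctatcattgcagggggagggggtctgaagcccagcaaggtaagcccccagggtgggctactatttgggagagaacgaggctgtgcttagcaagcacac
Isl1: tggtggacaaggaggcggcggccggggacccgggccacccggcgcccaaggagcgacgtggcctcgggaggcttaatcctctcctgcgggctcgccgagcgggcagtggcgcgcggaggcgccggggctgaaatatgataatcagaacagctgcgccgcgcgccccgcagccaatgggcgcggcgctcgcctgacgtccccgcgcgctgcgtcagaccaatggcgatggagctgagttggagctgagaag

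Of the 15 called genes, 8 had a promoter in that table (Atp1b4, Glis3, Hoxa7, Hoxa9, Isl1, Pcsk5, Scube2 and Tfpi2). These windows were searched on both strands for the TEAD motif GGAATG, the AP-1 motif TGANTCA, the TATA box TATAAA and the HOX and PBX motif TGATTNAT. The TEAD motif occurred in 1 of the 8, that of Hoxa9, 48 bases before the start, and in 12.6% of 27025 mouse promoters. The other motifs occurred in none of the 8 windows and in 6.87% (AP-1), 13% (TATA box) and 2.99% (HOX and PBX) of all promoters. A match to these letters is a description and does not show a binding site.

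Among the genes that rose, Atp1b4 had the largest difference. It encodes a protein related to the beta subunits of the sodium pump that in placental mammals sits in the inner nuclear membrane of muscle. Its log2 signals were 0.33, -0.41, 0.20 and 0.55 in unstressed and 2.33, 1.53, 1.93 and 2.33 in stressed wounds (probe set 1422908_at), so that it rose by 1.86 (SE 0.235, adjusted p = 0.042, limma). The lowest stressed wound lay well above the highest unstressed wound. The skeletal muscle list, with 32 measured genes, had a median difference of -0.0003, with 16 genes higher and 16 lower, and its median was 0.02 under quantile normalization and between 0.03 and 0.13 without unstressed replicate 2 or 4 or stressed replicate 2 or 3.

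Pcsk5, a proprotein convertase that cleaves secreted precursors, was called through 2 of its 5 probe sets. On the one of smaller p (1437339_s_at) it read -0.61, -0.37, -0.63 and -0.77 in unstressed and 0.65, 0.83, 1.63 and 1.0 in stressed wounds. It rose by 1.62 (SE 0.198, adjusted p = 0.042), and 4 of its 5 probe sets were higher in stressed wounds. Camk4, a calcium- and calmodulin-dependent kinase, read -0.93, -0.37, -0.46 and -0.35 in unstressed and 1.05, 0.90, 0.76 and 1.62 in stressed wounds on probe set 1439843_at and rose by 1.61 (SE 0.201, adjusted p = 0.042). Its remaining probe sets lay between -0.09 and 0.26 and their groups overlapped, so the call rests on 1 of 5 probe sets.

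Mfap5, a glycoprotein of the microfibrils that carry elastin, read -0.16, -0.76, -1.19 and -0.80 in unstressed and 0.89, 0.94, 0.68 and 0.96 in stressed wounds (probe set 1449082_at). It rose by 1.60 (SE 0.193, adjusted p = 0.042), and its second probe set gave 1.29 (adjusted p = 0.052). Fn1, fibronectin, the adhesive protein of the provisional matrix, read -0.66, -0.72, -0.91 and -0.50 in unstressed and 0.45, 0.10, 0.18 and 0.52 in stressed wounds on probe set 1426642_at. It rose by 1.01 (SE 0.134, adjusted p = 0.0496). The other Fn1 probe set gave a larger difference of 1.38 with a wider spread (SE 0.212, adjusted p = 0.067).

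Sulf1, an extracellular enzyme that trims sulfate groups from heparan sulfate, read -0.08, -0.03, 0.01 and -0.04 in unstressed and 1.45, 1.13, 0.83 and 1.60 in stressed wounds (probe set 1436319_at). The unstressed wounds were nearly equal, while the stressed wounds varied and all lay above them. Sulf1 rose by 1.29 (SE 0.159, adjusted p = 0.042), a second probe set gave 1.14 (adjusted p = 0.067), and another gave -0.05. Tfpi2, a Kunitz-type inhibitor of serine proteases that binds to the matrix, read -0.16, -0.36, 0.28 and 0.16 in unstressed and 1.07, 1.28, 1.39 and 1.19 in stressed wounds and rose by 1.25 (SE 0.152, adjusted p = 0.042). Csrp2, a LIM-domain protein of smooth muscle and of activated stromal cells, rose by 1.22 (SE 0.162, adjusted p = 0.0496), from -0.75, -0.72, -0.38 and -0.13 to 0.79, 0.54, 0.60 and 0.97.

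Masp1, a serine protease of the lectin pathway of complement, read -0.16, -0.15, -0.48 and 0.15 in unstressed and 1.01, 1.26, 0.99 and 0.82 in stressed wounds (probe set 1438602_s_at) and rose by 1.18 (SE 0.149, adjusted p = 0.042). A second Masp1 probe set gave 1.01 (adjusted p = 0.092), and the other 3 lay between -0.07 and 0.39 with overlapping groups. Glis3, a zinc finger transcription factor, rose by 1.09 (SE 0.142, adjusted p = 0.048), from -0.13, 0.01, 0.09 and -0.23 to 1.28, 1.05, 1.10 and 0.69. Scube2, a secreted protein that helps release hedgehog ligands, rose by 1.07 (SE 0.134, adjusted p = 0.042), from -0.42, -0.11, -0.33 and -0.31 to 0.77, 0.46, 0.96 and 0.93. In all 3 genes every stressed wound lay above every unstressed wound.

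**Figure D1:**
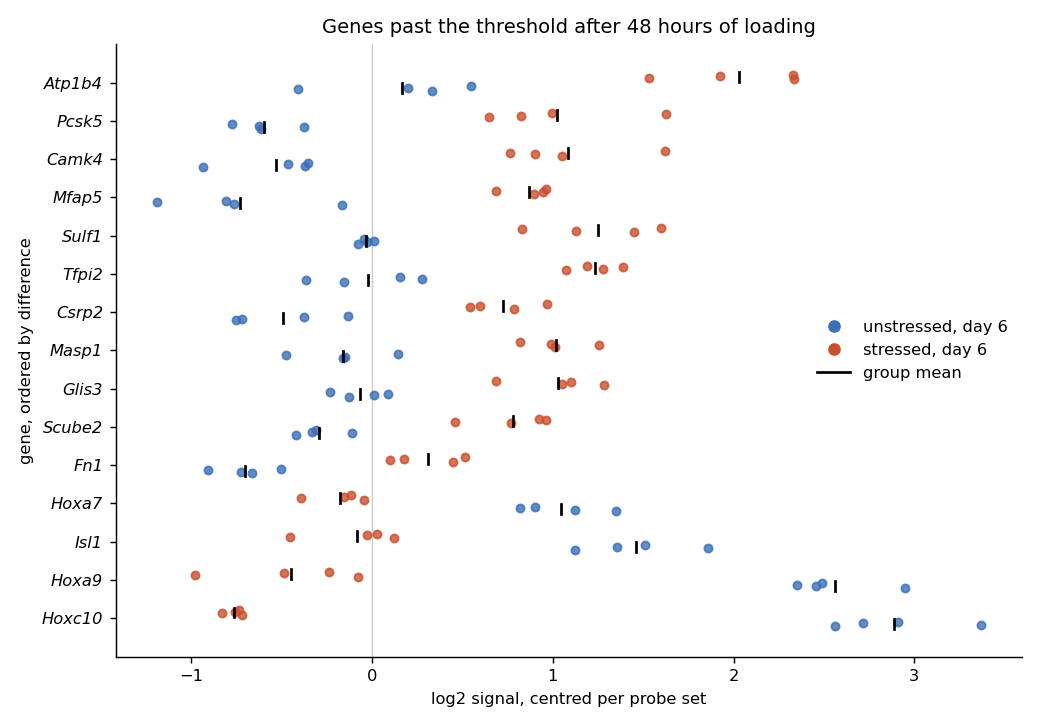
Centred log2 signal (x axis) of the 15 genes past the threshold at day 6 (y axis, ordered by difference), with 1 point for each of the 4 unstressed and 4 stressed wounds and a bar at each group mean. The groups are apart for every gene, and the gap is widest for Hoxc10, where all stressed wounds lie below -0.7 and all unstressed wounds above 2.5.

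The probe sets just outside the threshold belonged to Syt13, Tshz3, Plod2, Col1a2 and, through a second probe set, Mfap5, each at an adjusted p of 0.052. At an adjusted p of 0.1 the count would be 114 probe sets of 101 genes, 76 probe sets higher and 38 lower. At an unadjusted p of 0.05, 3487 probe sets passed, 9.98% of those tested, with 1821 higher (5.21%) and 1666 lower (4.77%). The median difference over all probe sets was 0.001.

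The fall in homeobox genes was examined across the Hox clusters. Of 33 measured Hox genes, 14 were lower in stressed wounds and 19 were higher, and the median difference was 0.03, close to that of all genes (0.006). In 7 Hox genes all stressed wounds lay below all unstressed wounds, where 3.75% of all genes did so, and in 1 gene, Hoxd3 (0.36), they lay above. Besides the 3 called genes, the 7 were Hoxa10, Hoxa5, Hoxb9 and Hoxc9, and none of these 4 passed the threshold. Hoxa10 read 1.22, 1.41, 0.68 and 0.90 in unstressed and -0.22, -0.29, -0.37 and 0.12 in stressed wounds (-1.24, SE 0.176, adjusted p = 0.054), but its second probe set gave 0.05 with overlapping groups (adjusted p = 0.96). Hoxa5 differed by -1.14 (SE 0.166, adjusted p = 0.060), with -0.38 and overlapping groups on its second probe set, Hoxb9 by -0.79 (adjusted p = 0.12) and Hoxc9 by -0.54 (adjusted p = 0.11).

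The 7 genes were then placed by paralogue number. Among the 10 genes of paralogues 1 to 4, which are expressed toward the head, none was lower without overlap and the median difference was 0.19. Among the 9 genes of paralogues 5 to 8, 2 were lower without overlap, and among the 14 genes of paralogues 9 to 13, 5 were. Within the last group the 5 belonged to paralogues 9 and 10, and all 7 measured genes of paralogues 11 to 13 had overlapping groups. Because some genes were far lower, the mean over the 33 genes was 0.26, 0.28, 0.24 and 0.33 in unstressed and 0.08, -0.04, -0.14 and 0.04 in stressed wounds, without overlap. The direction of the median of all 33 genes turned to -0.0037 under quantile normalization and to -0.02 without unstressed replicate 2.

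**Figure D2:**
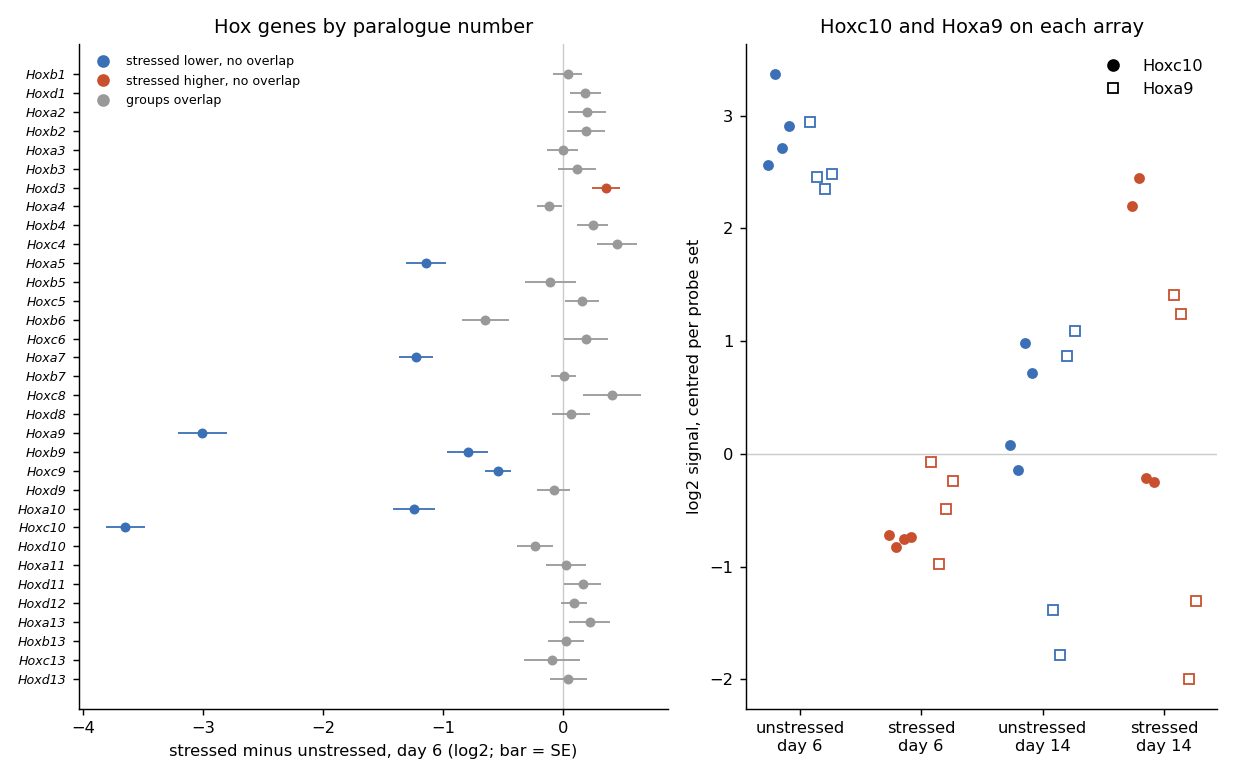
Left: difference between stressed and unstressed wounds at day 6 (x axis, log2, bar = SE, n = 4 per group) for the 33 measured Hox genes ordered by paralogue number (y axis). Right: centred log2 signal (y axis) of Hoxc10 and Hoxa9 on each array of the 4 groups. In all, 7 points stand to the left of 0 without overlap of the groups, led by Hoxc10 (-3.65) and Hoxa9 (-3.0), and at day 14 the arrays of each group are split for both genes.

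At day 14 the arrays of each group were split for both genes, replicates 1 and 2 from replicates 3 and 4. Replicates 1 and 2 were the lower ones in unstressed and the higher ones in stressed wounds. What sets these replicates apart was not tested. Hoxc10 read 0.08, -0.14, 0.99 and 0.72 in unstressed and 2.20, 2.44, -0.21 and -0.25 in stressed wounds of day 14, and Hoxa9 read -1.39, -1.78, 0.87 and 1.09 in unstressed and 1.41, 1.24, -1.99 and -1.31 in stressed wounds. The groups overlapped at day 14 for both, with differences of 0.63 (adjusted p = 0.66) and 0.14 (adjusted p = 0.96). In a fit of all 16 arrays, the loading effect of day 14 minus that of day 6 was 4.28 for Hoxc10 (adjusted p = 0.063), 1.39 for Hoxa7 (adjusted p = 0.063) and 3.14 for Hoxa9 (adjusted p = 0.34), so the difference between the days did not pass the threshold for any of them.

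Other regulators of position and patterning had no common direction. Of 30 measured genes, 19 were higher and 11 lower in stressed wounds (median 0.14), and Isl1 was the only one past the threshold. The cofactor Zfpm2 was higher by 1.47 (SE 0.238, adjusted p = 0.072), with unstressed wounds at -0.24, 0.32, -0.85 and -0.63 and stressed wounds at 1.09, 0.79, 1.22 and 1.38. The mesenchymal factors Prrx2 (0.69, adjusted p = 0.13) and Twist1 (0.65, adjusted p = 0.14) were also higher without overlap.

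Genes of the extracellular matrix lay on the higher side in stressed wounds in every class examined, while few of them passed the test singly. In the lists below each gene is represented by 1 probe set, 51.2% of all 18193 genes were higher in stressed wounds, 3.35% were higher without overlap of the groups (7.11% counting both directions), and 0.0715% passed the threshold in either direction. Of 21 collagen chain genes, 19 were higher (median 0.57), 4 without overlap and 0 past the threshold. Of 19 genes for collagen processing and crosslinking enzymes, 17 were higher (median 0.50), 10 without overlap. Of 19 matricellular and adhesive matrix proteins, 18 were higher (median 0.97), 6 without overlap. All 12 small leucine-rich proteoglycans were higher (median 0.65), 4 without overlap, and 13 of 14 elastic fibre and microfibril genes were higher (median 0.86), 5 without overlap. No gene of these 5 lists was lower without overlap, and Mfap5 was the only one past the threshold on the probe set that represents it. Fn1 passed only on its other probe set.

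Among the collagens, Col8a2, a chain of a short collagen of vessels and basement membranes, read -0.29, 0.28, -0.27 and 0.05 in unstressed and 1.62, 0.65, 1.64 and 2.12 in stressed wounds (1.56, SE 0.278, adjusted p = 0.090). Its partner Col8a1 was higher by 1.33 (adjusted p = 0.145) and the fibril collagen Col5a2 by 0.71 (adjusted p = 0.14). The main fibril collagens of scar did not pass the test at this time. Col1a1 read 0.46, 0.34, 1.57 and 0.01 in unstressed and 0.27, 1.48, 0.40 and 0.15 in stressed wounds, a difference of -0.02 (SE 0.368, adjusted p = 0.99), and its second probe set gave 0.19. Col3a1 was 0.45 higher (SE 0.174, adjusted p = 0.41) with overlapping groups, and its second probe set gave 0.13. Col1a2 gave 0.92 (SE 0.127, adjusted p = 0.052) on the most variable of its probe sets but 0.14 and 0.15, with overlapping groups, on the other 2.

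Among the enzymes that modify collagen, Loxl1, a lysyl oxidase that crosslinks elastin and collagen, read -0.45, -0.20, -0.35 and -0.39 in unstressed and 0.49, 0.16, 0.46 and 0.34 in stressed wounds (0.71, SE 0.112, adjusted p = 0.067). Plod2, the lysyl hydroxylase whose product forms the crosslinks typical of fibrosis, read -1.15, -1.22, -0.38 and -0.59 in unstressed and 0.43, 0.85, 0.08 and 0.43 in stressed wounds (1.28, SE 0.221, adjusted p = 0.086). Its other probe set, the one just outside the threshold, gave 1.23 (SE 0.168, adjusted p = 0.052, limma). Both genes separated the groups. The prolyl hydroxylase subunit P4ha3 (1.35), the lysyl oxidase Loxl3 (1.16), the collagen chaperone Serpinh1 (0.77) and the lysyl hydroxylase Plod3 (0.66) were higher without overlap as well, with adjusted p from 0.11 to 0.13.

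Comp, cartilage oligomeric matrix protein, which binds fibril collagens, read -0.05, 0.16, -0.52 and -0.07 in unstressed and 0.73, 0.61, 0.86 and 1.16 in stressed wounds (0.96, SE 0.169, adjusted p = 0.086). The matricellular gene Ccn3 was higher by 1.5, the proteoglycan versican (Vcan) by 0.997 and tenascin C (Tnc) by 1.24, each without overlap and with adjusted p of 0.12, 0.12 and 0.15. Among the small proteoglycans, biglycan (Bgn) was higher by 0.60 (adjusted p = 0.11) and decorin (Dcn) by 0.69 (adjusted p = 0.12). Ltbp2, a microfibril protein, was higher by 1.44 (adjusted p = 0.11), and Emilin1, a glycoprotein of elastic fibres, by 1.01 (adjusted p = 0.11).

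Of 30 matrix proteases and inhibitors, 25 were higher in stressed wounds (median 0.46), 5 without overlap and 0 past the threshold. Timp1, an inhibitor of metalloproteinases, read -0.69, -0.86, 0.13 and -0.56 in unstressed and 0.78, 1.17, 1.28 and 0.55 in stressed wounds (1.44, SE 0.232, adjusted p = 0.072). The metalloproteinase Mmp19 (1.14), the plasminogen activator Plat (0.87), the aggrecanase Adamts4 (0.91) and Mmp23 (0.69) were the others without overlap.

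Fibroblast markers lay on the same side as the matrix genes. Of 18 markers, several of which are themselves collagens, proteoglycans or microfibril genes, 16 were higher (median 0.61), 6 without overlap, and Mfap5 passed. The mean over the list was 0.00, 0.14, -0.35 and -0.30 in unstressed and 0.48, 0.56, 0.30 and 0.38 in stressed wounds. Thy1, a surface marker of fibroblasts that is also on T cells and nerves, was higher by 0.72 (adjusted p = 0.13). The part of these markers in the matrix values was not tested. In each matrix list other than the collagen chains, unstressed replicate 2 had the highest mean of its group and stressed replicate 2 the lowest: the mean of the elastic fibre list was 0.11 in unstressed replicate 2 and 0.20 in stressed replicate 2, against -0.42 to -0.33 and 0.55 to 0.61 in the other wounds. The list means of the small proteoglycans (0.33 in unstressed and 0.06 in stressed replicate 2) and of the matrix proteases (0.06 and -0.01) overlapped between the groups through these arrays.

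**Figure D3:**
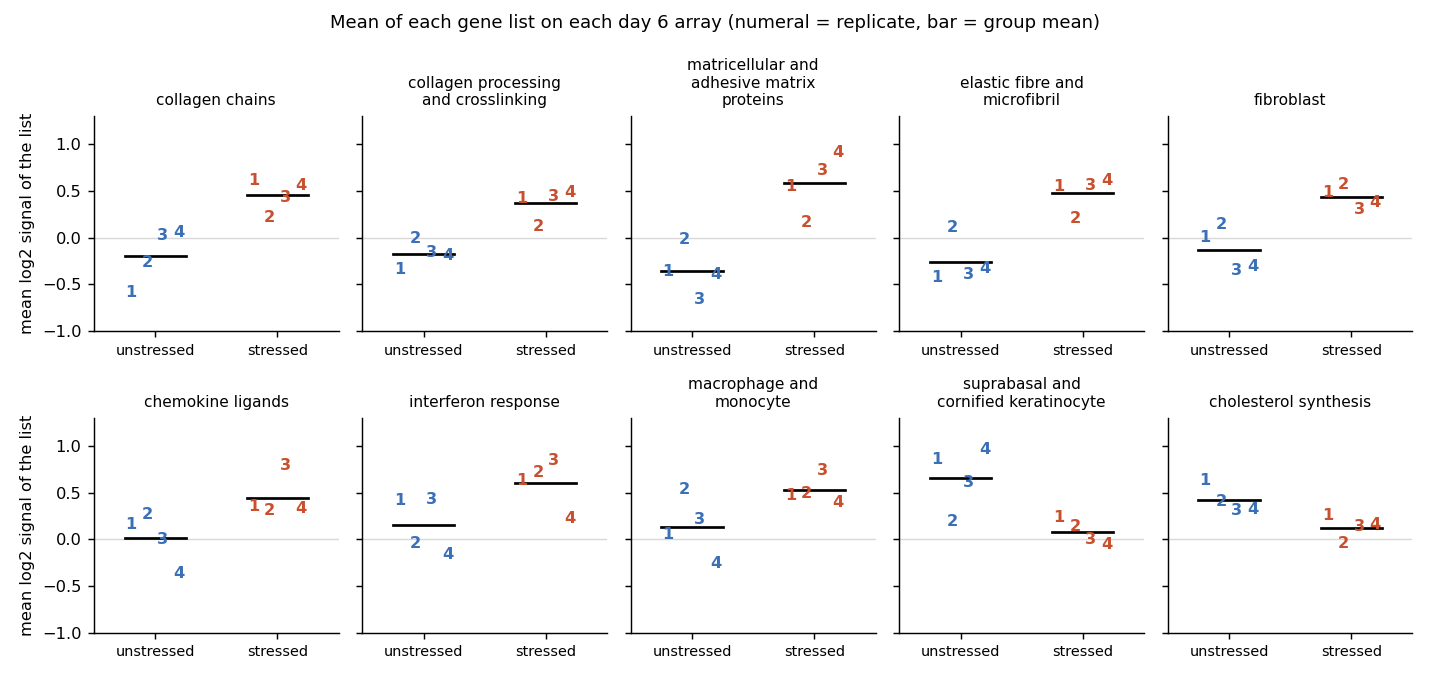
Mean centred log2 signal over the measured genes of 10 lists (y axis) on each day 6 array, with the replicate number as the plotting symbol and a bar at each group mean. The means of the first 6 lists and of cholesterol synthesis do not overlap between unstressed and stressed wounds, while those for interferon response, macrophages and cornified keratinocytes do.

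Genes of cell tension and mechanical sensing showed a mixed picture. Of 23 targets of serum response factor and YAP and contractile genes, 14 were higher and 9 lower (median 0.14). Acta2, smooth muscle actin, read -0.97, -0.66, 0.17 and -0.43 in unstressed and 0.25, 0.23, 0.18 and 0.48 in stressed wounds. The groups just failed to overlap, and the difference of 0.76 did not pass (SE 0.213, adjusted p = 0.23). Its other probe sets gave 0.22 and 0.24, with overlapping groups. The actin-binding proteins Tagln (1.07, adjusted p = 0.20) and Cald1 (0.76, adjusted p = 0.11) were higher, and Tead4, a DNA-binding partner of YAP, was lower, reading 0.90, 0.73, 0.80 and 1.02 in unstressed and 0.31, 0.38, 0.13 and -0.14 in stressed wounds (-0.69, SE 0.134, adjusted p = 0.11).

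Of 35 integrin and focal adhesion genes, 25 were higher (median 0.18), 4 without overlap, and 1 was lower without overlap. The adaptor Parva was higher by 0.65 (adjusted p = 0.15), and Itga6, the integrin that anchors basal keratinocytes, was lower, with a difference of -0.50 (adjusted p = 0.18). Of 16 stretch-gated channels and mechanical receptors, 10 were higher (median 0.09). Of 21 immediate early genes, 16 were higher (median 0.29) but 0 without overlap. Fos, which responds to stimuli within minutes, varied most among the unstressed wounds, at 2.38, 2.58, -2.30 and -0.08, and read 2.11, 0.96, 2.30 and 2.35 in stressed wounds (1.28, adjusted p = 0.73).

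Chemokine ligands, which the series title names, were mostly higher in stressed wounds, with no gene past the threshold. Of 34 measured ligands, 26 were higher (median 0.27) and 3 of them without overlap. Ccl2, the attractant of monocytes, read 0.59, 1.34, -0.36 and -0.98 in unstressed and 1.37, 0.88, 2.32 and 1.19 in stressed wounds, with overlapping groups and a difference of 1.29 (SE 0.476, adjusted p = 0.38). Ccl11, the attractant of eosinophils, read 0.19, 0.13, -1.04 and -1.12 in unstressed and 1.20, 0.53, 1.35 and 1.27 in stressed wounds (1.55, SE 0.328, adjusted p = 0.12). Ccl17, which attracts T cells through CCR4, differed by 1.02 (SE 0.185, adjusted p = 0.097) and Cxcl14 by 1.12 (adjusted p = 0.16), and both separated the groups. Cxcl1, the attractant of neutrophils, differed by 2.09 with a wide spread and overlapping groups (SE 0.683, adjusted p = 0.31). Of 18 chemokine receptors, 15 were higher (median 0.14) and 0 without overlap.

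Of 36 cytokines and their receptors, 27 were higher (median 0.10). Lif, a cytokine of the interleukin 6 family, read 0.02, -0.14, 0.17 and -0.52 in unstressed and 0.58, 0.69, 1.09 and 0.63 in stressed wounds (0.87, SE 0.170, adjusted p = 0.11). The alarmin Il33 was higher by 1.17 without overlap (adjusted p = 0.18). Il1rn, the antagonist of the interleukin 1 receptor, was the 1 gene of the list that was lower without overlap, at 0.93, 0.41, 0.51 and 0.71 in unstressed and 0.03, -0.62, 0.11 and -0.16 in stressed wounds (-0.80, SE 0.179, adjusted p = 0.13). Of 25 interferon response genes, 24 were higher (median 0.44), 3 without overlap, among them Usp18, a brake on interferon signalling (0.76, adjusted p = 0.15). Ifit1 was higher by 1.03 with overlapping groups (adjusted p = 0.24).

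Immune cell markers gave no single-gene call. Of 22 macrophage and monocyte markers, 21 were higher (median 0.36), but 0 separated the groups, and the list mean was 0.05, 0.53, 0.21 and -0.26 in unstressed and 0.47, 0.49, 0.74 and 0.40 in stressed wounds. Of 12 mast cell markers, 11 were higher (median 0.46) and of 14 dendritic and Langerhans cell markers all were higher (median 0.21), each with 1 gene without overlap. Neutrophil markers were split, with 6 higher and 7 lower (median -0.13, but 0.05 without unstressed replicate 3 and 0.06 without stressed replicate 4), and T and NK cell markers were 10 higher and 6 lower (median 0.06). Foxp3, the factor of regulatory T cells, was the 1 gene of that list without overlap (0.39, adjusted p = 0.24). B cell markers had a median of 0.12 over 8 genes. The part of these cell types in the chemokine and interferon values was not tested.

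Growth factor pathways had medians near 0. Of 35 TGF-beta and BMP genes, 22 were higher and 13 lower (median 0.07), 4 higher and 1 lower without overlap. The largest difference and the smallest p in this list were those of the 1 lower gene, Gdf5 (-1.72, adjusted p = 0.064). Among the 4 higher genes the BMP-binding glycoprotein Fstl1 had the smallest p (0.69, SE 0.125, adjusted p = 0.099). Of 37 Wnt genes, 23 were higher (median 0.05), 3 without overlap. The ligand Wnt2 had the largest difference of these (1.79, adjusted p = 0.18) and the ligand Wnt9a the smallest p, at -0.47, -0.07, -0.22 and 0.07 in unstressed and 0.97, 0.28, 0.77 and 1.23 in stressed wounds (0.98, SE 0.200, adjusted p = 0.11). Apoptosis regulators (17 of 27 higher, median 0.04) and cell cycle genes (21 of 29 higher, median 0.09) lay near 0, with 1 and 0 genes without overlap. Medians near 0 and 0 genes without overlap also held for 19 hypoxia and glycolysis genes (9 higher, 10 lower, median -0.01). As a control, 16 ribosomal protein genes had a median of -0.03 and 0 without overlap, yet 13 were lower and 3 higher. The count of genes on one side can therefore be uneven in a list whose median lies near 0. Of 21 ER chaperone and secretory genes, 15 were higher (median 0.18).

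Genes of the outer epidermis and of sterol synthesis were lower in stressed wounds. Of 30 markers of suprabasal and cornified keratinocytes, 29 were lower (median -0.51), 5 without overlap and 0 past the threshold, where 48.8% of all genes were lower. The list mean was 0.86, 0.19, 0.61 and 0.96 in unstressed and 0.24, 0.13, 0.00 and -0.05 in stressed wounds, so that unstressed replicate 2 lay among the stressed wounds. Aloxe3 and Alox12b, the lipoxygenases that build the lipid envelope of the skin barrier, differed by -0.70 (SE 0.157, adjusted p = 0.13) and -0.76 (SE 0.186, adjusted p = 0.16). The late cornified envelope gene Lce1m differed by -1.04 (adjusted p = 0.19). The 15 basal and wound keratinocyte markers were mixed, with 9 lower and 6 higher (median -0.24). In this list 3 were lower without overlap, including Krt15 (-0.70, adjusted p = 0.25), the lowest difference. The highest was 1.37, and 2 were at least 2-fold higher and 0 at least 2-fold lower. The list mean was -0.01 in unstressed and 0.03 in stressed wounds, with overlap. Of 7 sebaceous gland markers, 6 were lower (median -0.26).

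Of 17 cholesterol synthesis genes, 16 were lower (median -0.28), 2 without overlap. Dhcr7, which makes cholesterol in the last step of the pathway, read 0.75, 0.38, 0.84 and 0.83 in unstressed and 0.24, 0.08, 0.07 and 0.18 in stressed wounds (-0.55, SE 0.124, adjusted p = 0.13). The mean over the list was 0.62, 0.40, 0.31 and 0.32 in unstressed and 0.25, -0.04, 0.14 and 0.16 in stressed wounds, without overlap. The suprabasal and cornified keratinocyte markers above lay on the same side, and their part in the sterol values was not tested.

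The remaining tissue components showed smaller or mixed values. Of 20 endothelial markers, 18 were higher (median 0.18, 1 without overlap), but the median was -0.07 without unstressed replicate 1. Pericyte and smooth muscle markers had a median of 0.15 (9 of 13 higher), which was -0.02 without the same array. Adipocyte genes (17), melanocyte genes (12) and Schwann cell genes (11) had medians of -0.04, -0.04 and 0.06, and the sign of each turned when 1 array was left out. Hair shaft and follicle genes were 26 higher and 10 lower (median 0.23), cartilage and tendon genes 11 higher and 5 lower (median 0.13), and 1 of 4 red blood cell genes was higher (median -0.20, but 0.17 without unstressed replicate 1). Within the muscle list, Myl2, a myosin light chain of slow fibres, was higher by 1.14 (adjusted p = 0.12) and Tcap, a titin-binding protein, was lower at -0.79 (adjusted p = 0.11), both without overlap.

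**Figure D4:**
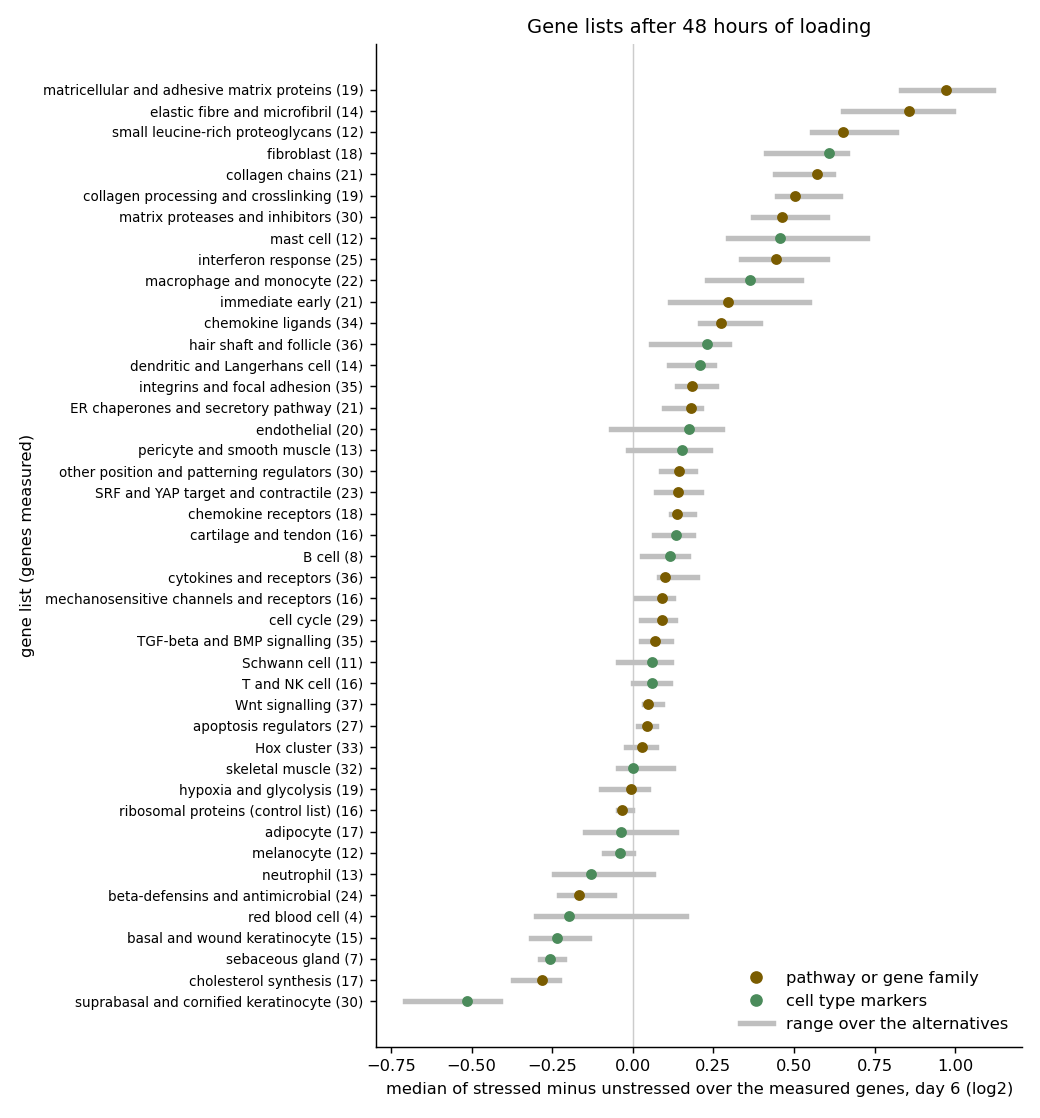
Median difference between stressed and unstressed wounds at day 6 (x axis, log2) over the measured genes of each of 44 lists (y axis, number of genes in parentheses), with the range of that median over the normalization and leave-one-out alternatives as a grey bar. The 7 highest medians belong to the 6 matrix lists and the fibroblast markers (0.46 to 0.97), and the lowest belongs to suprabasal and cornified keratinocytes (-0.51).

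Several large differences separated the groups but missed the threshold. Over all probe sets, 84 were at least 2-fold higher without overlap (0.24%) and 36 at least 2-fold lower (0.103%). Defb8, a beta-defensin, had the largest: it read -0.26, -0.18, -0.56 and 0.18 in unstressed and 3.96, 4.82, 2.64 and 6.96 in stressed wounds. Every stressed wound lay far above every unstressed wound, but they differed widely among themselves, and the difference of 4.80 (SE 0.724) had an adjusted p of 0.067 in the fit of the day 6 arrays. It passed in 3 of 17 alternatives, one of them the fit of all 16 arrays (adjusted p = 0.013). The list of 24 beta-defensin and antimicrobial genes held 17 lower and 7 higher genes (median -0.17), and Defb8 was the only one of them without overlap.

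The next largest differences upward were those of the peptide hormone Pyy (2.58, adjusted p = 0.086), the BMP-binding protein Bmper (1.98, adjusted p = 0.099), the gasdermin Gsdmc2 (1.81, adjusted p = 0.14) and the ligand Wnt2 (1.79, adjusted p = 0.18). The tenascin Tnn (1.78), the secreted protein C1qtnf3 (1.78) and the fibril collagen Col11a1 (1.67) followed, with adjusted p from 0.13 to 0.20. The second Col11a1 probe set gave 1.74 with overlapping groups. Pyy read -0.85, -0.53, 0.42 and 1.14 in unstressed and 3.49, 2.45, 1.93 and 2.64 in stressed wounds, so that both groups were spread.

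Downward, Mt4, a metallothionein of stratified epithelia, read 1.64, 0.50, 1.29 and 2.10 in unstressed and -0.82, -0.46, -2.72 and -0.89 in stressed wounds (-2.60, SE 0.486, adjusted p = 0.10). Gdf5, a growth factor of the BMP family that acts in joints and tendons, read 0.99, 2.23, 1.62 and 0.98 in unstressed and -0.44, -0.34, -0.17 and -0.12 in stressed wounds (-1.72, SE 0.256, adjusted p = 0.064). Gadd45a, a stress-response gene, differed by -1.61 (adjusted p = 0.067), with unstressed wounds from 1.09 to 2.31 and stressed wounds from -0.43 to 0.29. The sodium channel gene Scn2a (-1.77), the sebaceous desaturase Scd3 (-1.62), Ctxn3 (-1.51), the acyl-CoA synthetase Acsl6 (-1.45) and the potassium channel gene Kcnq5 (-1.43) were the others, with adjusted p from 0.11 to 0.25. The second probe set of Scd3 gave -1.67 and that of Acsl6 -0.02, both with overlapping groups. Further probe sets gave -1.05, -0.44 and -0.02 for Scn2a, all with overlap. For Kcnq5 they gave -0.77 without overlap and -0.17 with overlap. In Gdf5, Gadd45a, Scn2a, Ctxn3, Acsl6 and Kcnq5, unstressed replicate 2 was the highest array.

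The day 6 differences were set beside those of the separate day 14 arrays, which had 122 probe sets past the threshold (0.349%). Of the 610 genes higher without overlap at day 6, 494 (81%) were also higher at day 14, where 51.2% of all genes were, and 19 of them passed there. Another, Prkg2, a cGMP-dependent kinase, was higher at day 6 (1.42, adjusted p = 0.12) and passed at day 14 in the opposite direction (-1.89, adjusted p = 0.046). Of the 683 genes lower without overlap, 529 (77.5%) were also lower at day 14, where 48.8% of all genes were, and 1 passed. Of the 11 genes that rose at day 6, 10 were also higher at day 14. Tfpi2 (2.41, adjusted p = 0.019) and Csrp2 (2.36, adjusted p = 0.013) passed again, and Mfap5 (1.76), Fn1 (1.53), Masp1 (1.47) and Glis3 (0.89) separated the groups without passing. Atp1b4 was the exception, at -0.16. Of the 4 homeobox genes that fell, 1 was lower at day 14 (Isl1, -0.51, adjusted p = 0.35).

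Whether an effect differed between the days was tested in a fit of all 16 arrays. Of all probe sets, 3 passed (0.00858%), those of Cthrc1, Prkg2 and Apobec2, which were named after their values were seen, and none of these genes was among the 15. None of the 15 genes passed. In limma the unadjusted p was below 0.05 for 7 of the 15 genes and for 3506 of all probe sets. The 15 genes were selected on the day 6 arrays, which also enter this difference. Small p-values among them are therefore no evidence that their effects differed between the days. Defb8, 4.80 higher at day 6, differed by -0.01 at day 14, and the difference between these effects was -4.81 (adjusted p = 0.071). Medians of the matrix lists were larger at day 14 than at day 6 (collagen chains 1.47 beside 0.57, elastic fibre genes 1.47 beside 0.86), and that of the immediate early genes was -0.69 beside 0.29. Cell type lists also differed between the days. The day 14 median was -2.19 for skeletal muscle (beside -0.0003 at day 6), -1.60 for adipocytes (beside -0.04) and 1.44 for macrophages and monocytes (beside 0.36). For fibroblast markers it was 0.48 beside 0.61. These differences between list medians were not tested. The Y-linked genes Eif2s3y, Kdm5d and Uty were higher on every day 6 array than on any day 14 array. Xist ran from 0.17 to 6.30 among the day 14 arrays. The part of sex in the day 14 values and in the differences between the days was not tested. Among single genes, Col3a1 (3.02, adjusted p = 0.028) passed at day 14 and not at day 6, and for it the difference between the days, 2.57, did not pass (adjusted p = 0.094).

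**Figure D5:**
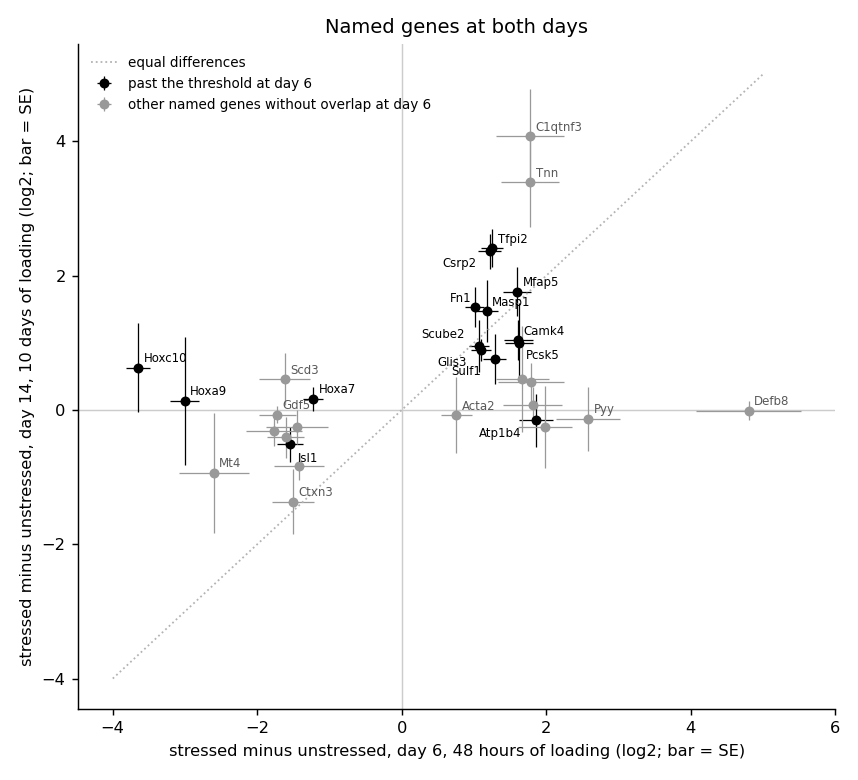
Difference between stressed and unstressed wounds after 48 hours at day 6 (x axis) and after 10 days at day 14 (y axis), both log2 with SE bars and 4 arrays per group, for the 15 genes past the threshold at day 6 (black) and for other named genes whose groups did not overlap at day 6 (grey, some labelled). The black points at the right lie above 0 at day 14 except Atp1b4 (-0.16), and Hoxc10, Hoxa9 and Hoxa7 lie left of 0 at day 6 and above 0 at day 14.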

How the data were processed

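RNA of mouse wound tissue was hybridised to Affymetrix GeneChip arrays, and per the series design text GeneSpring GX 11.0 was the software that the authors ran on the scanned intensities. The deposited table holds log2 signals, read as log2 from their range and centred per probe set by the authors, as rows lie around 0. How background was corrected, probes were summarized and arrays were normalized is not given in the sources used here. Of 45101 probe sets, 34945 with 1 gene symbol in the platform annotation were tested, 932 with several symbols, 9160 with none and 64 controls were left out, and 0 symbols changed through their Entrez identifiers. No filter on low values was applied, and depth does not apply to arrays, whose number limits the precision.

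The 8 day 6 arrays were fitted in limma 3.58.1 (R 4.3.3, lmFit and eBayes, two-sided), with Benjamini-Hochberg adjustment over all 34945 probe sets and a threshold of 0.05. A fit of the 8 day 14 arrays and a fit of all 16 arrays, for the difference between the days, used the same settings. The replicate numbers were not used as pairs. In 44 gene lists each gene entered through 1 probe set, that of the largest interquartile range across all 16 arrays, and list genes without such a probe set are not analysed here. Lists are described by counts and medians and were not tested as sets. The named genes were, per direction, the 15 largest differences past the threshold (all, where fewer passed) and the 8 largest without overlap of the groups that missed it, skipping clones and predicted genes, up to 5 members of smallest p per list described, and Ccl2, Acta2, Col1a1 and Col3a1. A few further list members are named after their values were seen. The members and lists were chosen with earlier results of these data known. The p-values measure the spread between these wounds, and the labels do not say which wounds share an animal or a litter. No 2 replicates of a group held the same values (the SD of their differences was at least 0.238).

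On simulated data with 34945 probe sets the day 6 fit recovered 77 of 100 changes of 1 on the log2 scale. It recovered 95 of 100 changes of 2, with 7 false calls. In the wounds themselves, the count of calls ran from 2 to 113 when single arrays were left out. The recovery rates therefore hold for the simulated data only and do not show how many real changes were missed. Promoter sequences came from the RefSeq table of GRCm38.p6. Tables used pandas 2.3.3 and numpy 2.4.6 under Python 3.11.15, and plots used matplotlib 3.10.9. The alternatives were 1 probe set per gene, all 16 arrays in the fit, quantile normalization, median centring, array weights and robust eBayes. Further ones were the more variable part of the probe sets and no probe sets ending in _x_at or _s_at. A replicate block and leaving out each day 6 array completed them.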

Additional observations from a re-analysis of the deposited data

Results flagged for a closer look

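The highest or lowest wound of a group of 4 stood far from the others, by a gap above Dixon's critical share of the group's range, in 8 of 158 groups examined, and chance alone marks about 1 in 20 such groups. Scd3 read 1.69 in stressed replicate 4 while the other stressed wounds lay between -0.04 and 0.15. The mean of the elastic fibre and microfibril list was 0.106 in unstressed replicate 2, above the other unstressed wounds, and 0.200 in stressed replicate 2, below the other stressed wounds. The mean of the SRF and YAP target and contractile list was -0.204 in unstressed replicate 1, where the endothelial list also had its lowest mean, -0.836. The chemokine ligand mean was 0.786 in stressed replicate 3, against 0.31 to 0.35 in the other stressed wounds. The ribosomal protein mean was 0.0416 in stressed replicate 2, and the hair shaft and follicle mean was -0.429 in unstressed replicate 4, both above the other wounds of their group.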

How the results depend on the processing

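The 16 probe sets past the threshold at day 6 (12 higher, 4 lower) became 9 with all 16 arrays in the fit, 36 under quantile normalization (27 higher, 9 lower), 2 under median centring (0 higher, 2 lower), 649 with array weights and 24 with 1 probe set per gene. The count was 16 with robust eBayes, 19 with the more variable part of the probe sets and 14 without those ending in _x_at or _s_at. Left-out single arrays gave 2 to 113. For the difference between the days, 3 probe sets became 7 with 1 probe set per gene and 865 with array weights. Left-out day 6 arrays gave 1 to 3, and no day 14 array was left out. The estimated weight of stressed replicate 2 was 0.293, and those of the other arrays were 0.59 to 2.71. Deviations of same-numbered wounds correlated at -0.146, -0.42, -0.237 and -0.0013, and those of the other pairs at -0.468 to 0.443. No pairing by replicate number was seen in these values, which cannot exclude shared animals. With the replicate block 3 probe sets passed at day 6 and 16 for the difference between the days. The small difference of Col1a1 turned to 0.113 under quantile normalization, 0.304 without unstressed replicate 3 and 0.081, 0.035 and 0.121 without stressed replicates 1, 3 and 4, and over all left-out arrays it ran from -0.324 to 0.304. Of 587 recomputed values of named genes, 444 kept their direction and side of the threshold, 113 lost the call, 25 gained one and 5 reversed, all of them Col1a1. Only values of the 15 genes called at day 6 could lose a call. Apart from Hoxc10 and Hoxa9, each of these genes kept it in only 6 to 10 of its alternatives. Of 440 recomputed list medians, 19 in 10 lists changed sign, all with medians between -0.20 and 0.18. The cause of these changes was not tested. Signal over background could not be judged in centred values.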
